A study of Mus musculus with 2 samples.

Results

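The 5 mature miRNAs of the miR-143/miR-145 group were examined in serum extracellular vesicles (EVs), the membrane particles that cells shed into the blood. They are mmu-miR-143-3p and mmu-miR-143-5p from the hairpin Mir143, mmu-miR-145a-5p and mmu-miR-145a-3p from the hairpin Mir145a, and mmu-miR-145b from the hairpin Mir145b. They were selected by name, and all 5 were found among the 1847 miRNAs listed in each of the 2 deposited tables, each in a row of its own. Each table holds 1 small RNA library, so n = 1 for every value, and no difference between the groups has a replicate check. In the study's methods the serum of several mice was combined before a library was made. The directions given here follow the labels, and they conflict with the study's own account of which way serum EV-miRNAs changed, so the tables may have been exchanged between the labels. Which of the labels and the account is right could not be settled from these tables. If the tables were exchanged, each ratio of iFIRKO to control would become its inverse, for example 1.31 (95% interval from counting 1.29 to 1.34) in place of 0.762 for miR-143-3p, and every lower and higher below would trade places.

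Both groups were 7-week-old male mice that received 100 mg/kg tamoxifen by intraperitoneal injection on 5 consecutive days and were sampled on day 3 after the last dose. iFIRKO mice carry Adipoq-CreERT2, a tamoxifen-inducible Cre recombinase driven by the adiponectin promoter of adipocytes, and Insr flox/flox, so that the insulin receptor gene is deleted in adipocytes. The control mice were labelled WT, whereas the study's methods describe them as carrying the floxed alleles without Cre. No miRNA in these tables reads out the deletion itself, and the tables hold no protein or mRNA marker of vesicles.

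miR-143 and miR-145 are transcribed together from 1 locus and are best known from smooth muscle cells, where serum response factor and its partner myocardin switch them on. They help to keep these cells contractile by repressing transcription factors such as Klf4 and Klf5. miR-143 is also known to accumulate as preadipocytes become adipocytes, and to restrain insulin signalling in the liver of obese mice. From Mir143 the 3p strand is the one usually loaded into Argonaute, and from Mir145a the 5p strand is. Vesicle miRNA in serum is a mixture from many cell types, so fewer vesicles from a cell type and fewer copies per vesicle cannot be told apart.

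In the GENCODE annotation of GRCm38 (mm10, the build in the labels), Mir145a lies on chromosome 18 from 61647825 to 61647894 and Mir143 from 61649196 to 61649258, both on the minus strand with 1301 bases between them. Since transcription runs from high to low coordinates, Mir143 comes first. The long non-coding RNA gene Carmn, the host gene, spans 61645878 to 61665538 in RefSeq and covers both hairpins. In GENCODE it spans 61649625 to 61665537 and ends 366 bases before Mir143. Mir145b lies on the same chromosome and strand from 69022199 to 69022273, which is 7.37 Mb from Mir143 and outside the span of Carmn. It is therefore neither antisense to Mir145a nor part of the same locus in this annotation, and its values are given separately. The only other miRNA hairpin that RefSeq places within 500 kb of Mir143 is Mir378a (61397835 to 61397900), within the span of Ppargc1b.

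The deposited values were whole counts divided by the depth of the library, which was 3817902 counts for the control-labelled library and 2233498 counts for the iFIRKO-labelled library, a 1.71-fold difference. They are given as recovered counts and as counts per 1000000 (CPM). Intervals are 95% intervals of counting error only, since whether reads of the same molecule were merged is not stated. The lowest value of a table stood for fewer than 10 counts, and all 5 miRNAs were above this floor in both libraries.

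miR-143-3p, the dominant strand of Mir143, was the most abundant of the group by far. It had 29639 counts in the control-labelled library (7763 CPM, 95% Wilson interval 7676 to 7852) and 13214 counts in the iFIRKO-labelled library (5916 CPM, 5817 to 6018). It ranked 30 among all listed miRNAs in the control-labelled library and 34 in the iFIRKO-labelled library. The ratio of iFIRKO to control was 0.762 (95% interval 0.747 to 0.778), so the share of this miRNA was 23.8% lower in the iFIRKO-labelled library, and the interval lay below 1.

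miR-145a-5p, the dominant strand of Mir145a and the miRNA through which Klf5 is repressed, had 2569 counts (673 CPM, 647 to 699) in the control-labelled library. In the iFIRKO-labelled library it had 1091 counts (488 CPM, 460.3 to 518). Its ratio was 0.726 (0.676 to 0.780), which overlapped that of miR-143-3p, and it ranked 90 and 99, respectively. Both dominant strands were thus lower in the iFIRKO-labelled library by a similar proportion, and neither was past the 1.5-fold threshold that the study used.

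The other strands were scarce. miR-143-5p had 319 counts (83.6 CPM, 74.9 to 93.2) and 162 counts (72.5 CPM, 62.2 to 84.6), and its ratio of 0.868 (0.714 to 1.05) could not be distinguished from 1 at this depth. miR-145a-3p had 156 counts (40.9 CPM, 34.9 to 47.8) and 44 counts (19.7 CPM, 14.7 to 26.4). Its ratio was 0.482 (0.337 to 0.678), which is 2.07-fold lower in the iFIRKO-labelled library (1.48 to 2.97). The lower bound of that fold lay just under 1.5, so that counting error alone leaves room on either side of the threshold.

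miR-145b went the other way, with 38 counts (9.95 CPM, 7.25 to 13.7) in the control-labelled library and 44 counts (19.7 CPM, 14.7 to 26.4) in the iFIRKO-labelled library. Its ratio was 1.98 (1.25 to 3.14). The counts themselves differed little, and the ratio is one of shares of 2 libraries of unequal depth. The letter suffix marks miR-145a and miR-145b as related sequences, and how the authors divided reads between them is not given in the sources used here, so the value of the much rarer miR-145b is uncertain.

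**Figure D1:**
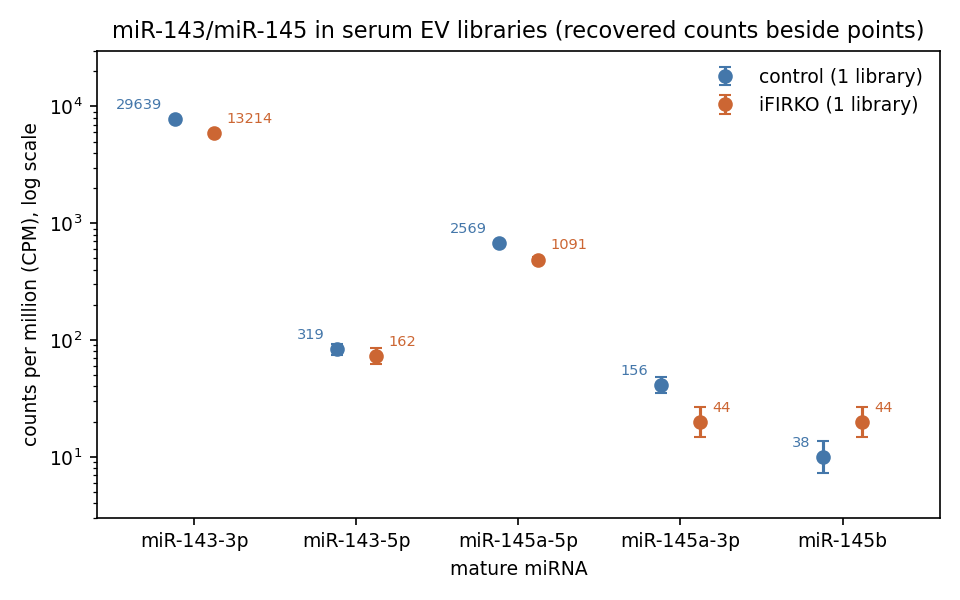
The level of each member in CPM (log scale) in the control-labelled library (blue) and the iFIRKO-labelled library (orange), with 95% Wilson intervals and the recovered count beside each point. Each point is 1 library, and miR-143-3p, miR-143-5p, miR-145a-5p and miR-145a-3p were lower and miR-145b higher in the iFIRKO-labelled library.

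The order of the levels in the control-labelled library was miR-143-3p, miR-145a-5p, miR-143-5p, miR-145a-3p and miR-145b, with no overlap of intervals between neighbours. In the iFIRKO-labelled library the order of the first 4 was the same, and miR-145a-3p and miR-145b were level at 44 counts each. All 5 together held 0.857% of the control-labelled library (32721 counts, 0.848 to 0.866) and 0.652% of the iFIRKO-labelled library (14555 counts, 0.641 to 0.662), a ratio of 0.760 (0.746 to 0.775). miR-143-3p made up 90.6% of the group's counts in the control-labelled library and 90.8% in the iFIRKO-labelled library, so the sum follows this strand. Ligation of small RNA depends on sequence and was not corrected, so an order between miRNAs is one of counts and not of molecules.

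The members were then set beside the whole tables. As deposited, 4 members had a lower and 1 had a higher share of the iFIRKO-labelled library, with a median log2 ratio of -0.39. Of all 1847 listed miRNAs, 220 (11.9%) had a lower share and the median log2 ratio was 0.88, a background whose direction rests on the labels like that of the members. At the 1.5-fold threshold 1 member was lower, miR-145a-3p, against 3.03% of all listed miRNAs, and 1 was higher, miR-145b, against 66.3%. The interval lay below 1 for miR-143-3p, miR-145a-5p and miR-145a-3p, as it did for 5.13% of the 1736 miRNAs that exceeded the floor in each library. It lay above 1 for miR-145b and for 62.7% of these miRNAs.

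Because ratios ran lower for abundant miRNAs throughout, each member was also read against its own class of mean count. miR-143-3p and miR-145a-5p belong to the 118 miRNAs with a mean count of 1000 and over, where the median log2 ratio was -0.07, 9.32% were over 1.5-fold lower and 2.54% were over 1.5-fold higher. In this class 70 miRNAs (59.3%) had a ratio under 1. A total of 30 of the class had a lower ratio than miR-143-3p, and 21 had a lower ratio than miR-145a-5p. A ratio under 1 was therefore the more frequent outcome in this class, and both dominant strands lay in its lower part without standing at its edge.

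The mean counts of miR-143-5p and miR-145a-3p put them among the 302 miRNAs from 100 to under 1000, where the median log2 ratio was 0.53. Here 2.32% were over 1.5-fold lower and 47.0% were over 1.5-fold higher. In this class 32 miRNAs had a lower ratio than miR-143-5p and none had a lower ratio than miR-145a-3p. Among these 1736 miRNAs only 1, the red cell miRNA miR-451a (0.409), had a lower ratio than miR-145a-3p. The mean count of miR-145a-3p was exactly 100, the edge of its class. miR-145b was among the 1350 miRNAs from 10 to under 100 by mean count, of which 76.7% were over 1.5-fold higher and 0.444% over 1.5-fold lower. With 656 below and 688 above it, miR-145b lay in the middle of that class.

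**Figure D2:**
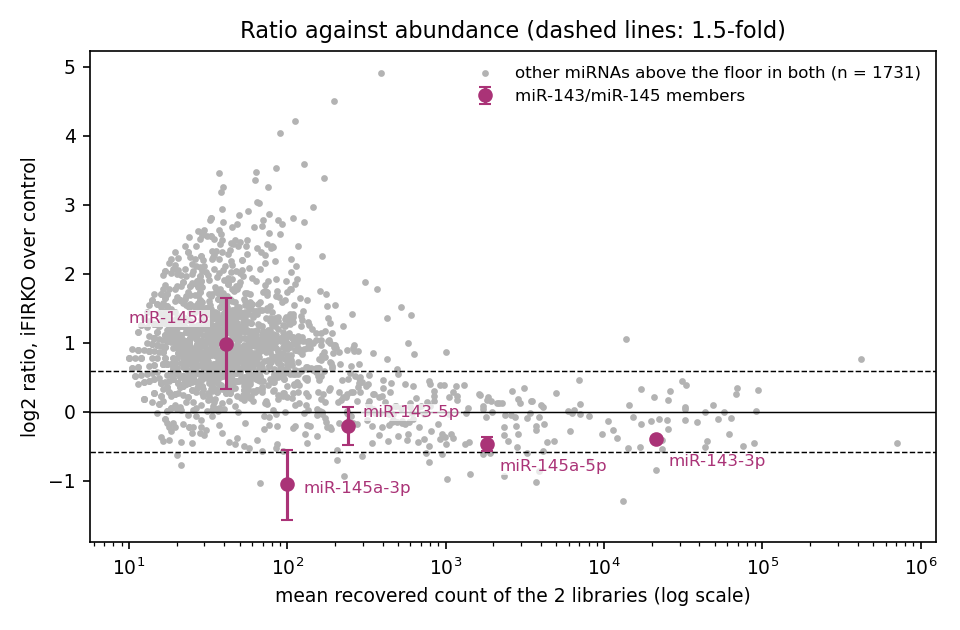
The log2 ratio of iFIRKO to control against the mean recovered count (log scale) for all other miRNAs that exceeded the floor in each library (grey), with the 5 members and their 95% counting intervals in purple. The dominant strands miR-143-3p and miR-145a-5p lie below 0 in the lower part of the abundant miRNAs, miR-145a-3p lies under nearly all others, and miR-145b lies in the middle of the miRNAs of its count.

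Ratios between members of the same library do not depend on how the libraries are scaled, and 6 of them were computed. miR-143-3p exceeded miR-145a-5p by 11.5-fold (11.1 to 12.0) in the control-labelled library and by 12.1-fold (11.4 to 12.9) in the iFIRKO-labelled library. The change was 1.05-fold, with a 95% Wald interval from 0.975 to 1.13. Taking both strands of each hairpin, Mir143 exceeded Mir145a by 11.0-fold and 11.8-fold, a change of 1.07 (0.997 to 1.15). Both intervals included 1, and the interval of the hairpins widened to 0.973 to 1.18 when adjusted over the 6 pairs by the Bonferroni method.

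The proportion of strands was given next. miR-143-3p exceeded miR-143-5p by 92.9-fold (83.2 to 104) in the control-labelled library and by 81.6-fold (69.9 to 95.8) in the iFIRKO-labelled library, a change of 0.878 (0.726 to 1.06). miR-145a-5p exceeded miR-145a-3p by 16.5-fold (14.0 to 19.5) and by 24.8-fold (18.3 to 34.3), respectively. This change of 1.51-fold had an interval from 1.07 to 2.12, which included 1 once adjusted over the pairs (0.95 to 2.39). miR-143-5p exceeded miR-145a-3p by 2.04-fold and 3.68-fold, a change of 1.80 (1.23 to 2.64, adjusted 1.07 to 3.02). The ratio of miR-145a-5p to miR-145b was 67.6 and 24.8, a change of 0.367 (0.236 to 0.569, adjusted 0.203 to 0.663). Each pair whose adjusted interval excluded 1 therefore set miR-145a-3p or miR-145b, with at most 44 counts in the iFIRKO-labelled library, against another member. Not every such pair did so, since miR-145a-5p over miR-145a-3p had an adjusted interval that included 1.

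**Figure D3:**
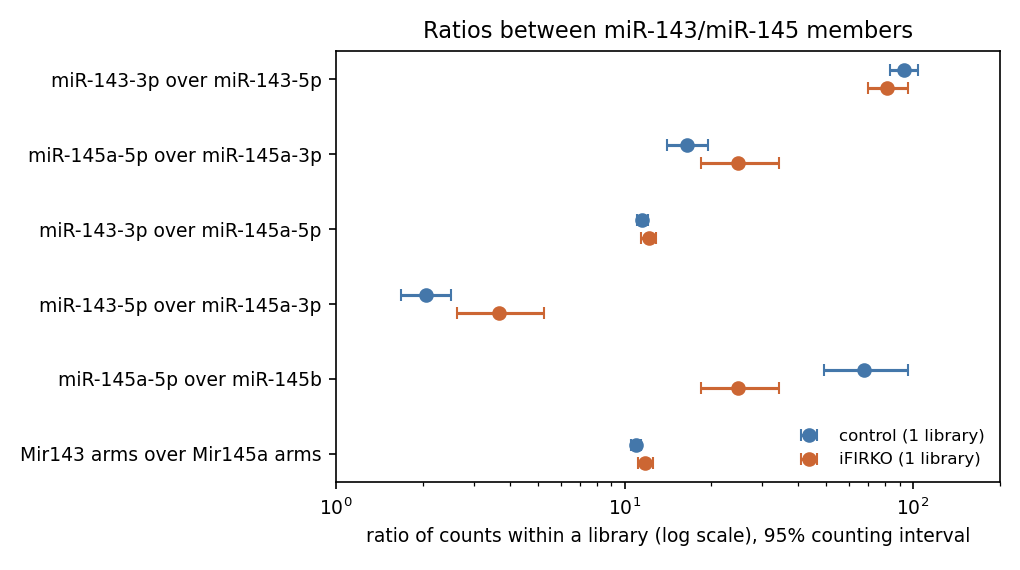
Ratios of counts between members within each library (log scale), with 95% Clopper-Pearson intervals, for the control-labelled library (blue) and that labelled iFIRKO (orange). miR-143-3p over miR-145a-5p stood at 11.5 and 12.1, whereas miR-145a-5p over miR-145b stood at 67.6 and 24.8.

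Strand preference was compared with that of other hairpins. In 610 hairpins with both strands above the floor, the median difference between strands was 1.25 on the log2 scale in the control-labelled library and 1.23 in the iFIRKO-labelled library. The difference for Mir143 was 6.54 and 6.35, and only 28 and 22 of the hairpins were more unequal. For Mir145a it was 4.04 and 4.63, with 83 and 48 hairpins more unequal. Among the 70 hairpins in which neither strand had a mean count under 100, the median difference was larger, 2.84 and 2.62, respectively. Of these, 8 and 6 were more unequal than Mir143, and 26 and 15 were more unequal than Mir145a. Mir143 thus had a strong strand preference in both sets, whereas Mir145a was less far above the middle of the smaller set. Between the libraries the log2 strand ratio (3p over 5p) of Mir143 moved by -0.19 and that of Mir145a by -0.59. Among the 70 hairpins in which neither strand had a mean count under 100, the median size of this movement was 0.27. In this set 45 hairpins moved by more than Mir143, and 16 moved by more than Mir145a.

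The group was then set beside 6 lists of miRNAs with known roles in cells that shed vesicles into blood or in adipocyte differentiation. Every miRNA of the lists was found and exceeded the floor in each library, and background calls are those given above for all listed miRNAs. A list of 13 miRNAs known to control the phenotype of smooth muscle cells had 6 members higher and 7 lower in the iFIRKO-labelled library, with none past 1.5-fold and a median log2 ratio of -0.04. Its most abundant member was miR-21a-5p, which promotes smooth muscle growth, with a ratio of 1.07 (1.05 to 1.08). Its extremes were miR-214-3p at 1.39 (1.16 to 1.67) and miR-222-3p, which favours the proliferative state, at 0.802 (0.727 to 0.884). The ratio of miR-143-3p was thus under the lowest of these 13.

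A list of 4 muscle miRNAs had 3 members lower and 1 higher, with a median log2 ratio of -0.14 and none past 1.5-fold. miR-1a-3p, a main miRNA of heart and skeletal muscle, had a ratio of 0.907 (0.888 to 0.926). The extremes were miR-133b-3p at 0.721 (0.655 to 0.794) and miR-206-3p, a skeletal muscle miRNA, at 1.30 (1.19 to 1.43). Both strands of the endothelial Mir126a were lower, miR-126a-3p with a ratio of 0.710 (0.702 to 0.718) and miR-126a-5p with a ratio of 0.684 (0.671 to 0.698). The ratios of the dominant strands of Mir143 and Mir145a, 0.762 and 0.726, were near those of miR-126a-3p and of miR-133b-3p, so they were not nearer to the endothelial than to every muscle miRNA.

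A list of 16 miRNAs with a part in adipocyte differentiation had 9 members higher and 7 lower, none past 1.5-fold, and a median log2 ratio of 0.08. Its most abundant member, miR-30a-5p, had a ratio of 0.916 (0.901 to 0.93). The extremes were miR-33-5p, a regulator of cholesterol export, at 1.47 (1.23 to 1.76) and miR-30c-5p at 0.739 (0.706 to 0.774). The pair from Mir378a, the nearest other hairpin, had ratios of 1.21 (miR-378a-3p, 1.17 to 1.26) and 0.980 (miR-378a-5p, 0.855 to 1.12), so neither was as low as miR-143-3p.

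Markers of other sources also differed between the libraries. Erythroid miRNAs went the same way as the dominant strands of Mir143 and Mir145a, and hepatocyte miRNAs went the opposite way. With the labels as given, all 8 erythroid miRNAs were lower in the iFIRKO-labelled library, 3 of them past 1.5-fold, with a median log2 ratio of -0.48. They held 30.9% of the control-labelled library and 22.4% of the iFIRKO-labelled library, mostly as miR-16-5p (260382 and 190830 CPM). By comparison miR-451a had 5536 and 2263 CPM, so these shares are those of the list and do not measure red cell RNA. The most abundant member, miR-16-5p, had a ratio of 0.733 (0.730 to 0.736). The extremes of the erythroid list were miR-451a at 0.409 (0.396 to 0.422) and miR-15a-5p at 0.794 (0.746 to 0.845). The ratio of miR-451a to miR-23a-3p, a common index of red cell RNA in serum, was 0.645 (0.633 to 0.656) in the control-labelled library and 0.288 (0.279 to 0.297) in the iFIRKO-labelled library. All 4 hepatocyte miRNAs were higher, with a median log2 ratio of 0.45, and their share went from 12.1% to 20.2%. The extremes were miR-122-5p at 1.71 (1.70 to 1.71), which was also the most abundant, and miR-122-3p at 1.35 (1.03 to 1.77). The part of red cell or liver RNA in the values of miR-143 and miR-145a was not tested.

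**Figure D4:**
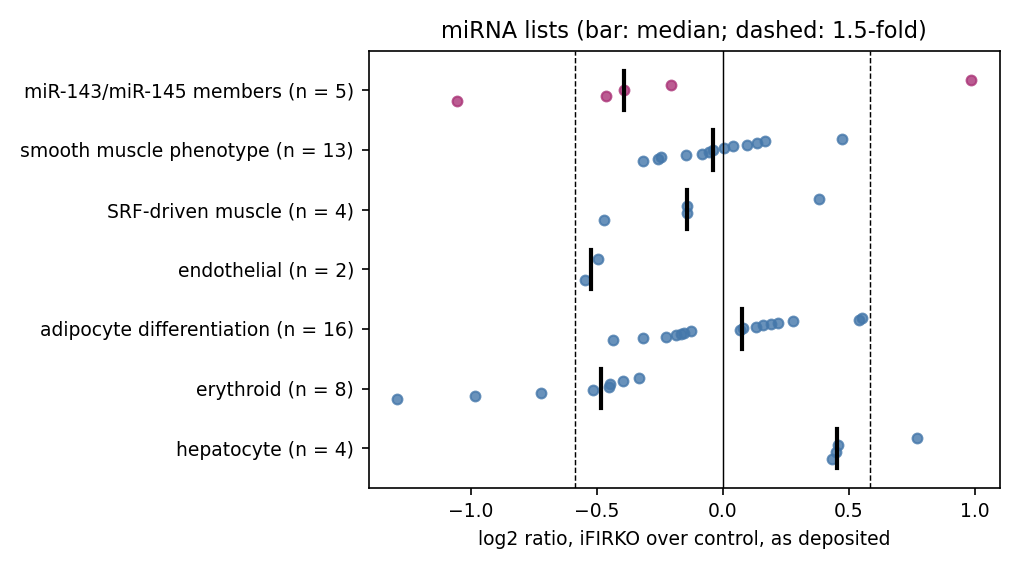
The log2 ratio of iFIRKO to control as deposited for the 5 members (purple) and for the miRNAs of 6 lists (blue), with each list's median as a black bar and dashed lines at 1.5-fold. The members' median of -0.39 lies between the medians of the muscle list (-0.14) and of the erythroid list (-0.48).

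Counts of both dominant strands were set against 11 other miRNAs of the same library, a choice made after the values were seen. Against the endothelial miR-126a-3p, miR-143-3p stood at 0.279 and 0.299, a change of 1.07 (1.05 to 1.10), and miR-145a-5p changed by 1.02 (0.952 to 1.10). Against miR-16-5p the changes were 1.04 (1.02 to 1.06) for miR-143-3p and 0.991 (0.923 to 1.06) for miR-145a-5p. Against the muscle miRNA miR-1a-3p they were 0.840 (0.816 to 0.865) and 0.800 (0.743 to 0.862), and against miR-133b-3p of the same list 1.06 (0.958 to 1.16) and 1.01 (0.894 to 1.13). Against the muscle miRNA miR-206-3p they were 0.586 (0.533 to 0.643) and 0.558 (0.497 to 0.626). Against miR-133a-3p, also of the muscle list, they were 0.840 (0.811 to 0.869) and 0.800 (0.741 to 0.863). Against miR-21a-5p they were 0.713 (0.696 to 0.731) and 0.679 (0.632 to 0.730). Against miR-30a-5p they were 0.832 and 0.793, against miR-23a-3p 0.832 and 0.792, and against miR-148a-3p 0.655 and 0.623, each with an interval under 1. The largest change was that against the hepatocyte miR-122-5p, with 0.447 (0.437 to 0.456) and 0.426 (0.396 to 0.457). In these terms, which no scaling can alter, the dominant strands were lower in the iFIRKO-labelled library relative to miR-21a-5p, miR-30a-5p, miR-23a-3p, miR-148a-3p and miR-122-5p. The result against muscle miRNAs depended on which was used: they were lower relative to miR-1a-3p, miR-133a-3p and miR-206-3p, whereas both intervals against miR-133b-3p included 1. Relative to miR-126a-3p and miR-16-5p, miR-143-3p was slightly higher and the interval of miR-145a-5p included 1.

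The size of the member ratios depended on the scaling. miR-148a-3p, the reference the study used in its RT-PCR, had 6423 CPM and 7479 CPM, a ratio of 1.16 (1.14 to 1.19), and dividing by it lowered miR-143-3p to 0.655 and miR-145a-5p to 0.623. With it, 3 members were over 1.5-fold lower, against 5.52% of all listed miRNAs. Taking the total without the erythroid list gave 0.679 and 0.646, with 2 members over 1.5-fold lower, against 4.93% of all listed miRNAs. With the TMM factors of edgeR, which lower every log2 ratio by a shift of 0.85, the ratios were 0.422 and 0.402. All 4 strands of Mir143 and Mir145a were then over 1.5-fold lower, against 19.5% of all listed miRNAs, while miR-145b stood at 1.09. A ratio under 1 was obtained for these 4 strands under each of the 6 scalings tried, but this does not test their direction. The alternatives multiplied every ratio by factors from 0.553 to 1.002, so none could raise these strands above 1. As deposited, the interval of miR-143-5p included 1. miR-145b was above 1 under each scaling, with an interval that included 1 under TMM. The number of members past 1.5-fold changed with the scaling, as given here. As deposited, 1 member and 3.03% of all listed miRNAs were over 1.5-fold lower, so both rose with these scalings.

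**Figure D5:**
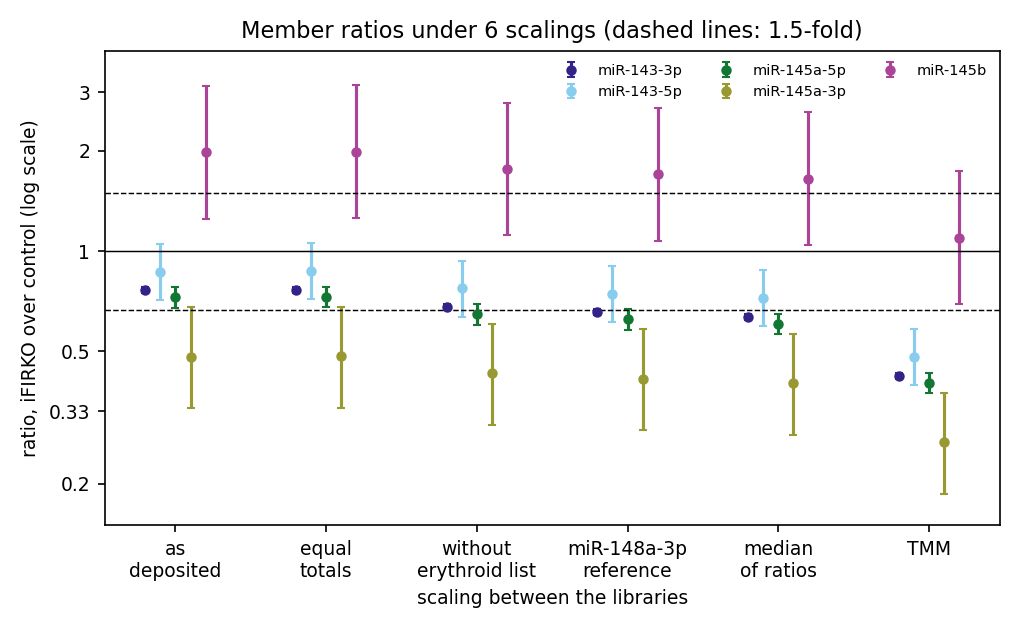
The ratio of iFIRKO to control (log scale) of each member under 6 scalings of the libraries, with 95% counting intervals and dashed lines at 1.5-fold. miR-143-3p runs from 0.762 as deposited to 0.422 with TMM, and the order of the 5 members is the same under each scaling, since a scaling multiplies all of them by 1 factor.

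The miRNAs nearest to each member were found from the log2 CPM of both libraries, a likeness over only 2 libraries. miR-143-3p was nearest to miR-30e-5p (8459 and 6380 CPM, distance 0.16), miR-126a-5p (0.17) and miR-1a-3p (0.20). miR-145a-5p was nearest to miR-106b-3p (666 and 463 CPM, 0.079), miR-186-5p (0.10) and miR-3074-5p (0.21). miR-143-5p was nearest to miR-434-5p (0.056), miR-296-3p (0.13) and miR-3967 (0.14). miR-145a-3p had no near neighbour, the nearest being let-7i-3p (0.34), miR-21c (0.41) and miR-669h-3p (0.42). miR-145b was nearest to miR-1b-3p (0.077), miR-880-3p (0.078) and miR-1955-3p (0.081).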

How the data were processed

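EVs were isolated from pooled serum with a precipitation kit, their total RNA went into QIAseq miRNA libraries, the reads came from a NextSeq500, and the authors used the GeneGlobe Data Analysis Center of Qiagen. The build in the submitters' processing notes is mm10. The aligner, miRNA annotation release and handling of molecular identifiers are not given in the sources used here. The deposited signal of each miRNA is a normalized value that sums to 99.3% (control) and 99.1% (iFIRKO) of 1. Multiplied by the depth, 100.0% of the values of each table were whole (tolerance 0.05), and these counts were recovered. The lowest value (76 and 35 miRNAs) has a count of 1 and no count from 2 to 9 occurs, so it was taken as a floor under 10 counts (2.62 and 4.48 CPM).

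Ratios are iFIRKO over control on the deposited scale. Their 95% intervals come from the Clopper-Pearson interval of the iFIRKO share of both counts, those of CPM and shares are Wilson intervals, and those of changes between pairs are Wald intervals. The code was tested on simulated data. With 1 library per group no model could estimate the spread between animals, so no test between genotypes was made and edgeR 4.0.16 (R 4.3.3) gave only the TMM factors. Python 3.11.15 with scipy 1.17.1 was used. The median of ratios was taken over miRNAs whose mean count was 100 or more. Alternatives were scaling, a pseudocount of 1 CPM, the floor at 10 counts, filters at a mean count of 10 and 100, a 2-fold threshold, and miR-145b counts added to miR-145a-5p. The lists (smooth muscle, muscle, endothelial, adipocyte differentiation, erythroid and hepatocyte) and the members were chosen with earlier results of these data known. The miRNAs named were the members, the most abundant and the extreme miRNAs of each list, miR-148a-3p, miR-451a, miR-23a-3p, the 3 nearest to each member, and those of hairpins within 500 kb.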

Additional observations from a re-analysis of the deposited data

How the results depend on the processing

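No paired analysis was possible because there was 1 library per group, and for the same reason no library could be left out. With the median of ratios, which lowers every log2 ratio by a shift of 0.27, 3 members were over 1.5-fold lower, against 6.12% of all listed miRNAs. The ratio was 0.634 for miR-143-3p and 0.604 for miR-145a-5p. With miR-148a-3p as reference these ratios were 0.655 and 0.623, and 3 members were over 1.5-fold lower (5.52% of all listed miRNAs). With the total without the erythroid list they were 0.679 and 0.646, and 2 members were over 1.5-fold lower (4.93% of all). TMM gave 0.422 (miR-143-3p), 0.480 (miR-143-5p), 0.402 (miR-145a-5p), 0.267 (miR-145a-3p) and 1.09 (miR-145b), with 4 members over 1.5-fold lower and 0 higher. The filter at a mean count of 100, which leaves out miR-145b, and the 2-fold threshold also gave 0 higher members. The background was 34.5% of the 420 miRNAs kept by the filter and 43.0% of all listed miRNAs, respectively. The medians of the lists moved with the scaling by construction. With TMM they were -0.89 (smooth muscle), -0.99 (muscle), -1.37 (endothelial), -0.78 (adipocyte differentiation), -1.34 (erythroid) and -0.40 (hepatocyte), and with miR-148a-3p they were -0.26, -0.36, -0.74, -0.14, -0.70 and 0.23 in the same order, so the adipocyte differentiation median changed sign with both and the hepatocyte median with TMM. The other 60 values, which include each value with equal totals, the pseudocount or the floor at 10 counts and each change between members, stayed within counting error or within 1.5 times the count. Depth limits miR-145a-3p and miR-145b most, with 44 counts each in the iFIRKO-labelled library.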
